A study of Mus musculus with 20 samples.

Results

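The 40 genes described here are genes of the hepatic stellate cell and of the extracellular matrix that it makes, taken from a list of symbols and matched to array probes through their RefSeq accessions, older names included. A probe of liver signal above the negative controls was found for 39 of the 40 genes, out of 12986 genes measured in the series. *Col6a3* was not matched to a probe and is not analysed here, and *Ctgf* was matched under its current symbol. Of the 39, 7 were classed with the quiescent stellate cell, 9 with its activated state and 23 with the matrix. The classes are labels of the list, and whether a gene is particular to 1 state of the cell was not tested here. Liver RNA came from 20 male Muta™Mouse animals of strain 40.6, all carrying a *lacZ* reporter transgene and aged 25 weeks. Mice were given olive oil (control, replicates 1 to 5) or benzo(a)pyrene (BaP) in olive oil at 25 (replicates 6 to 10), 50 (replicates 11 to 15) or 75 mg/kg/day (replicates 16 to 20), by daily gavage for 28 days, and were killed 3 days after the last dose. Each animal was 1 sample, labeled with Cyanine 5 and hybridized to 1 array with a Cyanine 3-labeled universal mouse reference RNA, so each value is a log2 ratio of liver over reference.

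Hepatic stellate cells lie between the hepatocytes and the sinusoidal endothelium, where they store vitamin A. After liver injury they can become myofibroblast-like cells, which express smooth muscle actin, respond to transforming growth factor beta and platelet-derived growth factor, and deposit fibrillar collagens. Genes such as *Reln*, *Hhip* and *Ecm1* are known from the resting cell, *Acta2*, *Tagln* and *Timp1* from the activated one, and collagens, proteoglycans and their proteases make up the scar and its turnover. BaP is metabolized in the liver to DNA-binding products and is a ligand of the aryl hydrocarbon receptor. The comparisons ask whether these genes differed in liver between control mice and mice at each dose. In RNA of whole liver, fewer stellate cells and less RNA per cell cannot be told apart.

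The arrays lay on 6 slides, 4 positions on each, and the 25 mg/kg/day arrays were all at position 2 and the 75 mg/kg/day arrays all at position 4, while 4 of 5 control arrays were at position 1 and 4 of 5 arrays at 50 mg/kg/day at position 3. Dose and position can hardly be told apart. The labels name both liver and lungs as the source, and the hepatocyte markers were well above background on 20 of 20 arrays, whereas the surfactant genes *Sftpb* and *Sftpc* were well above background on 0, *Ager* on 1 and *Scgb1a1* on 5. *Sftpa1* and *Sftpd* were well above background on 16 and 19 arrays. The source was taken as liver. Control replicate 2 was the lowest of the 5 control arrays for 24 of the 39 genes (61.5%), against 23.7% of all probes, and the mean over the 39 genes was -0.37 in it, against 0.05 to 0.15 in the other 4 control arrays, as a log2 difference from the control mean. In control replicate 2, 54.3% of spots had a liver signal well above background, where the 20 arrays ranged from 51.9 to 67.5%. Replicate 6 was likewise the lowest array of the 25 mg/kg/day group for 19 genes (48.7%) and replicate 13 the lowest of the 50 mg/kg/day group for 17 (43.6%), against 21.0% and 21.8% of all probes.

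None of the 39 genes was called at any dose. A call needed an adjusted p (Benjamini-Hochberg) under 0.05 together with a change of over 1.5-fold in 1 two-sided limma model of all arrays, and the genes called at 25, 50 and 75 mg/kg/day numbered 0, 0 and 0. Over all 27346 probes tested, the same rule called 0% at 25, 0% at 50 and 0.135% at 75 mg/kg/day. The smallest adjusted p among the 39 was 0.636 at 25, 0.101 at 50 and 0.0755 at 75 mg/kg/day. A linear trend with dose reached an adjusted p under 0.05 in 0 of the 39 genes, against 0.157% of all probes.

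At an unadjusted p under 0.05 from limma, 5 of the 39 genes (12.8%) differed from the control at 25 mg/kg/day, 9 (23.1%) at 50 and 8 (20.5%) at 75, and 8 (20.5%) had a trend with dose. Each of these differences, read from the probe that stood for a gene, had the higher mean in the exposed mice. The corresponding shares of all probes were 7.81% at 25, 6.7% at 50 and 11.2% at 75 mg/kg/day, and 8.58% for the trend. The genes with a mean above the control numbered 19 of 39 at 25 mg/kg/day, 28 at 50 and 25 at 75, where 50.3%, 49.2% and 50.6% of all probes lay above 0. All 5 exposed arrays lay beyond all 5 control arrays for 0 genes at 25 mg/kg/day (1.21% of all probes), for 3 genes at 50 (0.815%) and for 1 gene at 75 (1.52%). The 3 genes were *Adamtsl2*, *Col14a1* and *Col3a1*, and the 1 gene was *Adamtsl2*. The 3 doses share the same 5 control arrays, so these counts are not independent of each other.

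**Figure D1:**
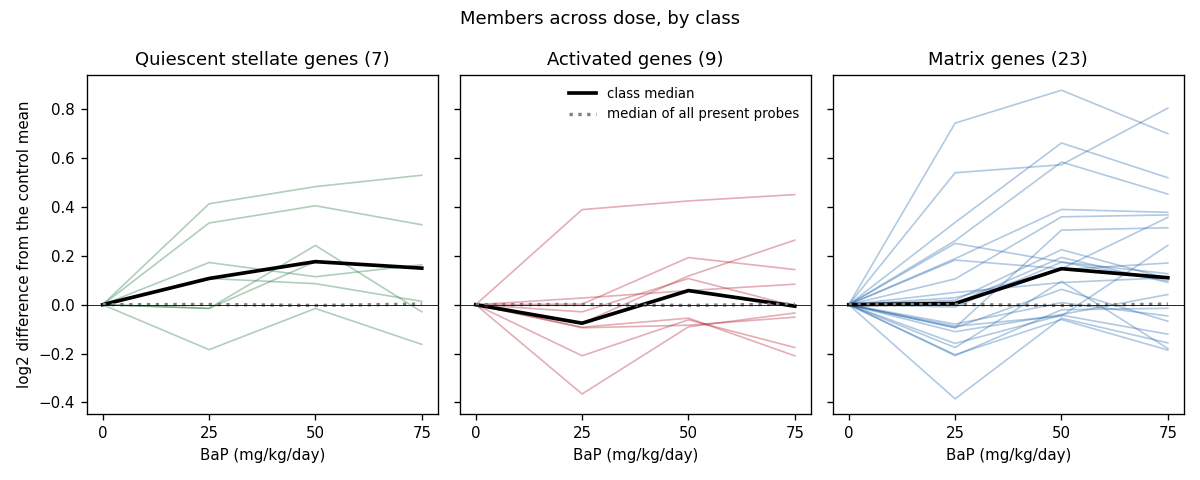
Difference of each of the 39 genes from the control mean (log2 of liver over reference, y axis) at each dose of BaP (mg/kg/day, x axis), with 1 thin line per gene, the class median in black and the median of all 27346 probes dotted. The class medians at 75 mg/kg/day were 0.15, -0.01 and 0.11 for quiescent stellate, activated and matrix genes, and lines lie on both sides of 0 in each class.

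By class, the median log2 difference from control at 25, 50 and 75 mg/kg/day was 0.11, 0.18 and 0.15 for the 7 quiescent stellate genes, -0.08, 0.06 and -0.01 for the 9 activated genes and 0.005, 0.15 and 0.11 for the 23 matrix genes. The quiescent median at 50 and 75 mg/kg/day was the value of *Vim*. Without control replicate 2, the median at 75 mg/kg/day was -0.039 for the quiescent genes, the opposite direction and the value of *Pdgfra*. The median over all probes was 0.00 at each dose. Over the 39 genes together it was -0.01, 0.12 and 0.11. At 75 mg/kg/day, 5 of 7 quiescent, 4 of 9 activated and 16 of 23 matrix genes had a mean above the control.

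Without control replicate 2, 12, 21 and 18 of the 39 genes lay above the control at 25, 50 and 75 mg/kg/day, the median log2 difference over the genes was -0.10, 0.03 and -0.02, and 6, 5 and 6 genes had an unadjusted p under 0.05, against 9.13%, 10.0% and 12.7% of all probes in the same fits. Of those genes, 3, 5 and 5 had the higher mean in exposed mice. At 75 mg/kg/day 7 genes moved from above to below the control when that array was left out, namely *Vim* (-0.07), *Pdgfra* (-0.04), *Loxl1* (-0.02), *Col1a2* (-0.05), *Col5a1* (-0.002), *Fstl1* (-0.09) and *Adamts2* (-0.08). With any 1 of the other control arrays left out instead, 18 to 23, 29 to 33 and 28 to 29 genes lay above the control at 25, 50 and 75 mg/kg/day.

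**Figure D2:**
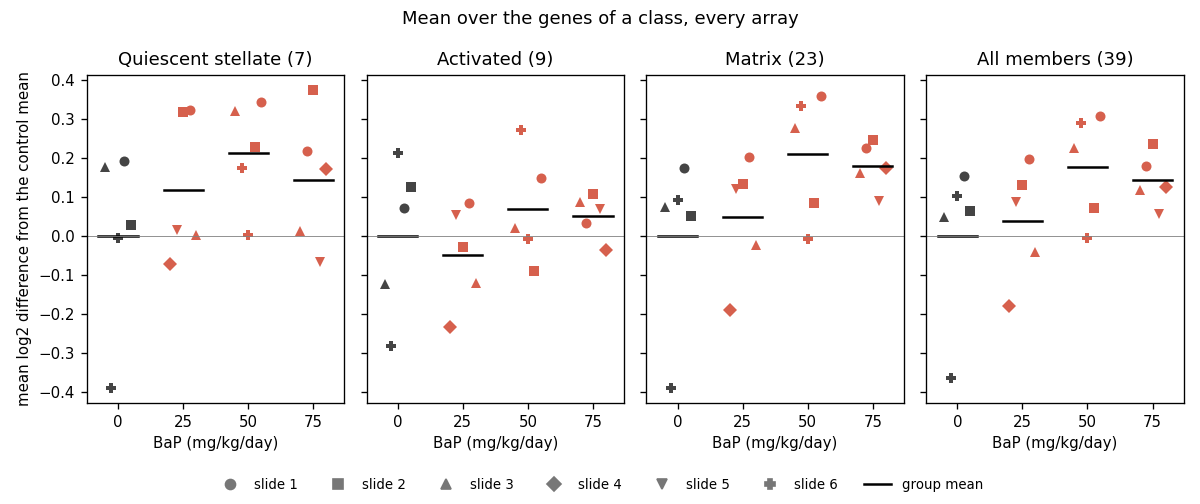
Mean over the genes of each class, and over all 39, in every array (y axis, log2 difference from the control mean) by dose of BaP (mg/kg/day, x axis), with the slide of the array as the marker and the group mean as a bar. The lowest control array, replicate 2 on slide 6, lies at -0.37 over the 39 genes, and the 5 arrays at 75 mg/kg/day lie between 0.06 and 0.24.

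The 8 genes with the smallest p at 75 mg/kg/day were *Adamtsl2*, *Dcn*, *Col14a1*, *Tgfbi*, *Col4a1*, *Col3a1*, *Reln* and *Timp3*. They are 6 matrix genes, 1 activated gene and 1 quiescent gene. Their values in every array follow by role, after the promoter letters of those members with a searched motif.

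Promoters in the RefSeq table (GRCm38.p6) were found for 28 of the 39 genes, and the 250 bases before the gene start were searched on both strands for the core of the aryl hydrocarbon receptor element, TNGCGTG, and for the letters TATAAA of the TATA box. Genes without a promoter there, among them *Dcn* and *Col14a1*, were not searched. The receptor core stood in 3 of the 28 (*Tgfb1*, *Tgfbi* and *Timp3*) and in 4.1% of all promoters. The letters TATAAA stood in 4 of the 28 (*Adamtsl2*, *Col3a1*, *Ecm1* and *Vim*) and in 12.4% of all promoters, at any place in the window. The windows of *Adamtsl2* (chr2:27079129-27079378, plus strand), *Tgfbi* (chr13:56609336-56609585, plus strand), *Timp3* (chr10:86300162-86300411, plus strand) and *Col3a1* (chr1:45311288-45311537, plus strand) are shown because these are the members of the 8 that hold a searched motif, which is in capitals.
Adamtsl2: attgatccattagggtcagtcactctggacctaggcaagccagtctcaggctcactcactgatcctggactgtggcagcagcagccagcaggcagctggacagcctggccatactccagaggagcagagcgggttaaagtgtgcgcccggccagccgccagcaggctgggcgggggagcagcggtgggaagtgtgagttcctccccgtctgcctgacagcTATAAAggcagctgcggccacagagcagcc
Tgfbi: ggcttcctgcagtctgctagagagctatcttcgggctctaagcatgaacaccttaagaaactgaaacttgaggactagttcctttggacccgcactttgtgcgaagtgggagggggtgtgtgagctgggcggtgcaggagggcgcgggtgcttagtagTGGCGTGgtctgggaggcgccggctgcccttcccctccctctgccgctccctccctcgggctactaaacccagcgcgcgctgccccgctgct
Timp3: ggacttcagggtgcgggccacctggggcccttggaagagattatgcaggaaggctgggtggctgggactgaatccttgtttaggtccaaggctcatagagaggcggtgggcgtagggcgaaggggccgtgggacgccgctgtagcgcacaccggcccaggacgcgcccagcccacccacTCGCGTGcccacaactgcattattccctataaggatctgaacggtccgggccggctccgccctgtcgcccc
Col3a1: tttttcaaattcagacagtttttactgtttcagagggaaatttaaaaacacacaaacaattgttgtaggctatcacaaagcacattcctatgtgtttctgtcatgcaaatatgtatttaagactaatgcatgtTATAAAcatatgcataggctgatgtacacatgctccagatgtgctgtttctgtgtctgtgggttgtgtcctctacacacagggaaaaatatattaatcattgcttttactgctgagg
TATAAA begins 30 bases before the start of *Adamtsl2* and 117 before that of *Col3a1*, and TNGCGTG begins 92 bases before the start of *Tgfbi* and 71 before that of *Timp3*. *Tgfb1*, which also holds TNGCGTG, had a log2 difference of 0.14 at 75 mg/kg/day.

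Among the quiescent stellate genes, *Reln*, which encodes the secreted glycoprotein reelin, had the smallest p at 75 mg/kg/day, and *Ecm1* had it at 25 and 50. In control replicates 1 to 5 the log2 ratio of *Reln* was 4.58, 3.71, 3.80, 4.40 and 3.76. It was 4.44, 4.13, 5.06, 4.602 and 4.09 at 25 mg/kg/day and 4.66, 4.32, 4.09, 4.95 and 4.65 at 50, in replicate order. The highest dose gave 4.32, 4.61, 5.11, 4.07 and 4.80. The control values fall into a lower set of 3 and a higher pair (replicates 1 and 4), and each exposed group overlaps that pair. The log2 difference was 0.41 at 25, 0.48 at 50 and 0.53 at 75 mg/kg/day (limma, SE 0.225 and adjusted p = 0.384 at 75). Within slides 1, 2 and 3, which each hold 1 array of every group, the difference at 75 mg/kg/day was 0.21, 1.35 and -0.26.

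*Ecm1*, which encodes an extracellular matrix protein that binds matrix components, had log2 ratios of -0.77, -1.42, -0.83, -0.84 and -1.21 in control replicates 1 to 5. They were -1.11, -0.54, -0.59, -0.73 and -0.48 at 75 mg/kg/day, 4 of 5 above all controls. Its difference from the control was 0.33, 0.40 and 0.33 at 25, 50 and 75 mg/kg/day (limma, adjusted p = 0.448 at 75). A second probe of *Ecm1* gave 0.02 at 75 mg/kg/day.

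The other 5 quiescent genes lay closer to the control at 75 mg/kg/day. *Hhip*, an inhibitor of hedgehog ligands, was at 0.16 and was well above background on 12 of 20 arrays. *Vim* and *Des*, which encode the intermediate filament proteins vimentin and desmin, were at 0.15 (95% CI -0.41 to 0.71) and -0.16 (95% CI -0.38 to 0.05), and *Vim* was at -0.07 without control replicate 2. *Pdgfra* and *Pdgfrb*, which encode the receptors of platelet-derived growth factor, were at 0.01 (95% CI -0.24 to 0.27) and -0.03 (95% CI -0.36 to 0.30).

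Of the 9 activated genes, *Tgfbi*, which encodes a matrix protein induced by transforming growth factor beta, was the member with the smallest p at 75 mg/kg/day. The log2 ratios of control replicates 1 to 5 were 3.06, 2.69, 2.87, 2.74 and 2.51. They were 3.101, 3.58, 3.16, 3.18 and 2.79 at 25 mg/kg/day and 3.25, 3.59, 2.75, 3.39 and 3.01 at 50, in replicate order. The highest dose gave 2.84, 3.16, 3.48, 3.15 and 3.49. In each exposed group 3 or 4 arrays lay above all controls (4, 3 and 4 at 25, 50 and 75 mg/kg/day), and the others lay among them. The log2 difference was 0.39, 0.42 and 0.45, and the fold change at the highest dose was 1.37 (limma, adjusted p = 0.325). Within slides 1, 2 and 3 it was 0.42, 0.98 and -0.22 at 75 mg/kg/day.

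The contractile and fibrogenic genes of the activated state lay near the control at 75 mg/kg/day. *Acta2*, which encodes alpha smooth muscle actin, had a log2 difference of -0.21 at 25, -0.06 at 50 and -0.18 at 75 mg/kg/day, with a 95% CI of -0.43 to 0.08 at 75. Its 2 dimmer probes gave -0.07 and 0.23 at 75 mg/kg/day. At 25 and 50 mg/kg/day the brighter of these 2 gave -0.21 and 0.32, with a 95% CI of 0.008 to 0.635 at 50. The dimmer gave -0.25 and 0.01. *Tagln*, which encodes the actin-binding protein transgelin, was at -0.37, -0.09 and -0.03, with a 95% CI of -0.48 to 0.41 at 75. *Ctgf*, connective tissue growth factor, was at -0.01 (95% CI -0.43 to 0.42), and *Tgfb1*, the ligand transforming growth factor beta 1, at 0.14 (95% CI -0.09 to 0.37). For the probes that stood for these 4 genes, the interval at 75 mg/kg/day excludes a 1.5-fold difference in either direction. That limit is 0.585 on the log2 scale. The dimmest *Acta2* probe, well above background on 6 arrays, had a 95% CI of -0.15 to 0.62 at 75 mg/kg/day. For *Acta2*, a 1.5-fold rise is therefore not excluded by every probe.

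*Timp1*, which encodes an inhibitor of matrix metalloproteinases, was read differently by its 2 probes. The brighter one gave -0.05 at 75 mg/kg/day (limma, adjusted p = 0.910) and the dimmer one -0.48 (adjusted p = 0.336), and both were well above background on 20 arrays. The dimmer one gave -0.23 at 25 and -0.36 at 50 mg/kg/day. At 75 its 95% CI was -0.87 to -0.10, with an unadjusted p of 0.016 from limma, a lower mean in exposed mice. *Lox* and *Loxl1*, which encode collagen and elastin cross-linking enzymes, were at -0.21 (95% CI -0.59 to 0.17) and 0.08 (95% CI -0.17 to 0.34). *Gas6*, a ligand of the receptor Axl, was at 0.26 (95% CI -0.18 to 0.71).

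**Figure D3:**
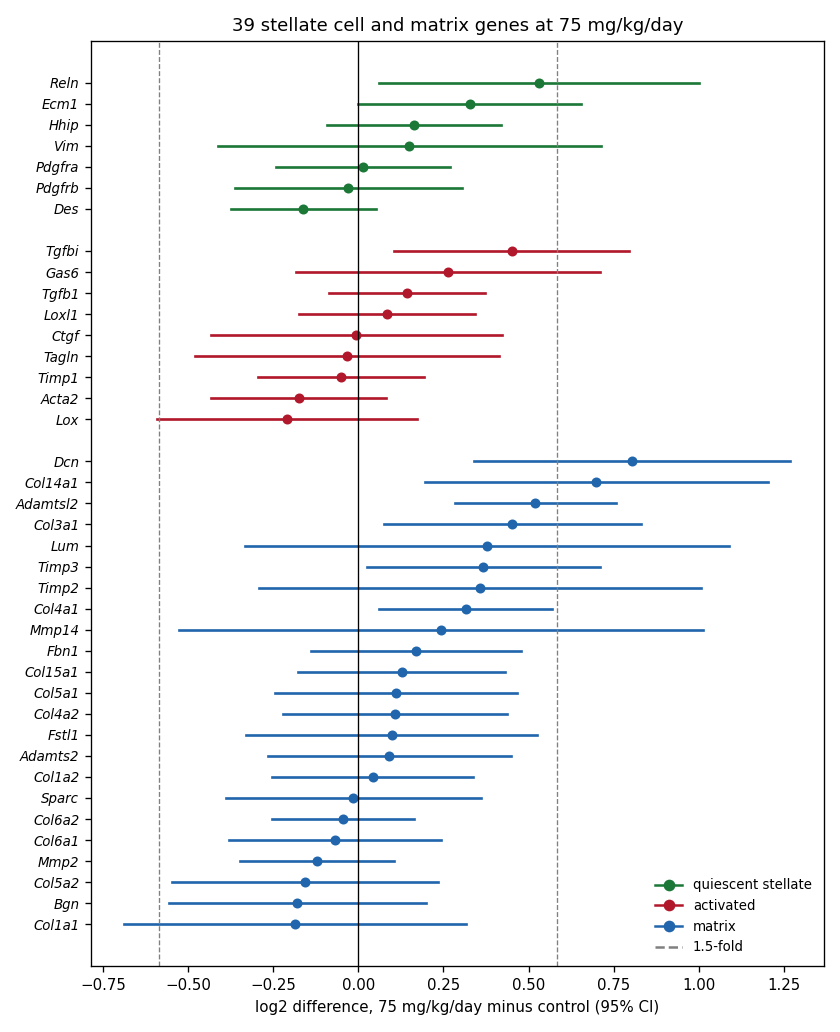
Log2 difference between the 75 mg/kg/day and control groups (x axis) for each of the 39 genes (y axis), with its 95% confidence interval from limma, by class, and dashed lines at a 1.5-fold difference. The intervals of 24 genes lie wholly within the dashed lines, and those of 8 genes lie wholly above 0.

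Of the 5 fibrillar collagen genes, *Col3a1* had the largest difference from the control at 50 and 75 mg/kg/day. *Col3a1* encodes the chain of type III collagen, a main collagen of the reticular fibers of the liver. In control replicates 1 to 5 its log2 ratio was -4.57, -5.24, -4.48, -4.61 and -4.78. It was -5.08, -4.56, -3.99, -4.07 and -4.68 at 25 mg/kg/day and -4.01, -4.22, -4.06, -4.28 and -4.20 at 50, in replicate order. At 75 mg/kg/day it was -4.29, -4.33, -3.88, -4.57 and -4.36. At 50 mg/kg/day all 5 arrays lay above all controls, as did 4 of 5 at 75 and 2 of 5 at 25 mg/kg/day. Its difference from the control was 0.26, 0.58 and 0.45 (SE 0.181 at each dose, adjusted p = 0.730, 0.641 and 0.357 from limma). A second, much dimmer *Col3a1* probe, well above background on 1 of 20 arrays, gave -0.11 at 75 mg/kg/day.

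*Col1a1* and *Col1a2*, which encode the chains of type I collagen, had log2 differences of -0.19 (95% CI -0.69 to 0.32) and 0.04 (95% CI -0.25 to 0.34) at 75 mg/kg/day. *Col5a1* and *Col5a2*, whose chains of type V collagen join type I fibrils, were at 0.11 (95% CI -0.25 to 0.47) and -0.16 (95% CI -0.55 to 0.23). The median over the 5 fibrillar genes was -0.11, -0.04 and 0.04 at 25, 50 and 75 mg/kg/day.

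*Col14a1* and *Col4a1* had the largest differences of the 6 other collagens at 50 and 75 mg/kg/day. *Col14a1* encodes a fibril-associated collagen. The log2 ratios of control replicates 1 to 5 were 4.09, 3.43, 3.22, 4.25 and 3.29. They were 4.31, 4.19, 5.13, 4.51 and 3.86 at 25 mg/kg/day and 4.39, 4.49, 4.42, 4.84 and 4.53 at 50, in replicate order. The highest dose gave 3.89, 4.10, 4.99, 4.13 and 4.67, with 2 of 5 above all controls. The log2 difference was 0.74, 0.88 and 0.70, a fold change of 1.67, 1.84 and 1.62 (adjusted p = 0.636, 0.563 and 0.288 from limma). Control replicates 1 and 4 lay above the other 3 control arrays. Within slides 1, 2 and 3 the difference at 75 mg/kg/day was -0.15, 1.70 and -0.20.

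*Col4a1* encodes a chain of type IV collagen, the network collagen of basement membranes. In control replicates 1 to 5 its log2 ratio was -2.04, -1.997, -2.04, -1.78 and -1.97. It was -1.98, -2.43, -1.89, -2.18 and -1.82 at 25 mg/kg/day and -1.50, -1.79, -1.85, -1.75 and -1.42 at 50, in replicate order. The highest dose gave -1.59, -1.55, -1.58, -1.55 and -1.99, so 4 of 5 arrays lay above all controls and replicate 20 lay among them. Its difference from the control was -0.09, 0.31 and 0.31 (limma, adjusted p = 0.343 at 75). A second probe of nearly the same brightness gave -0.04 at 75 mg/kg/day (adjusted p = 0.943).

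*Col4a2*, which encodes the partner chain in type IV collagen, was at 0.02, 0.23 and 0.11, and its second probe at -0.05 at 75 mg/kg/day. *Col6a1* and *Col6a2*, chains of the beaded filaments, were at -0.07 (95% CI -0.38 to 0.24) and -0.05 (95% CI -0.26 to 0.16) at 75 mg/kg/day. *Col15a1*, a collagen of basement membrane zones, was at 0.13 (95% CI -0.18 to 0.43).

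Among the 6 proteoglycans and glycoproteins, *Dcn* had the largest difference of the 39 genes at 75 mg/kg/day. It encodes decorin, a small leucine-rich proteoglycan that binds collagen fibrils and transforming growth factor beta. The log2 ratios of control replicates 1 to 5 were 0.41, -0.81, 0.05, 0.52 and 0.17. They were 0.47, 0.92, 0.81, 0.61 and 0.22 at 25 mg/kg/day and 0.72, 0.94, 0.04, 0.74 and 0.75 at 50, in replicate order. At 75 mg/kg/day it was 0.52, 0.96, 1.07, 0.53 and 1.28, so 4 of 5 arrays lay above all controls. Control replicate 2 lay well below the other control arrays. The log2 difference was 0.54, 0.57 and 0.80, with a standard error of 0.223, and the fold change at the highest dose was 1.75 (limma, adjusted p = 0.188). It was 0.58 at 75 mg/kg/day without control replicate 2 and 0.37 when spots with an outlying local background were also left out, an alternative added after seeing the data. Within slides 1, 2 and 3 it was 0.44, 0.90 and 0.11 at 75 mg/kg/day. With the slide as a block it was 0.57, below *Col14a1* at 0.60 and *Col3a1* at 0.59.

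*Lum*, which encodes the related proteoglycan lumican, was at 0.38 at 75 mg/kg/day with a 95% CI of -0.33 to 1.09, and its control arrays ranged from 0.67 to 2.52. The difference was 0.09 without control replicate 2. *Bgn* (biglycan) was at -0.18, *Fbn1* (fibrillin 1, of the microfibrils) at 0.17, or 0.08 without that array, *Fstl1* (follistatin-like 1) at 0.10 and *Sparc* (a collagen-binding matricellular protein) at -0.01. The 2 probes of *Sparc*, of nearly equal brightness, gave -0.01 and 0.14.

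Of the 6 genes of matrix turnover, *Adamtsl2* had the smallest p of the 39 genes at each of 50 and 75 mg/kg/day. It encodes a secreted ADAMTS-like glycoprotein that has no protease domain and binds fibrillin and the latent transforming growth factor beta complex. In control replicates 1 to 5 its log2 ratio was 0.49, 0.64, 0.77, 0.90 and 0.47. It was 0.91, 1.07, 0.98, 1.24 and 0.76 at 25 mg/kg/day and 1.55, 1.29, 1.25, 1.37 and 1.13 at 50, in replicate order. The highest dose gave 0.95, 1.37, 1.07, 1.19 and 1.30. All 5 arrays at 50 and all 5 at 75 mg/kg/day lay above all controls, as did 4 of 5 at 25.

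The log2 difference of *Adamtsl2* was 0.34 (95% CI 0.10 to 0.57), 0.66 (95% CI 0.42 to 0.90) and 0.52 (95% CI 0.28 to 0.76) at 25, 50 and 75 mg/kg/day. These are fold changes of 1.26, 1.58 and 1.43, with adjusted p of 0.636, 0.101 and 0.0755 from limma, and the trend with dose had an adjusted p of 0.0810. Within slides 1, 2 and 3 it was 0.47, 0.59 and 0.46 at 75 mg/kg/day and 0.23, 0.90 and 1.06 at 50, and within slide 6, which holds 2 control and 2 arrays at 50 mg/kg/day, 0.56. With the slide as a block it was 0.50 at 75 mg/kg/day (limma, adjusted p = 0.127). Between doses lay 72.0% of the variance of *Adamtsl2* over the 20 arrays and between slides 9.2%, where the median over the 39 genes was 13.3% between doses and 37.5% between slides. Over all probes these medians were 15.4% and 40.2%. *Adamtsl2* was singled out by its p in these same values, so its share between doses is no separate support.

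*Timp3* encodes a matrix-bound inhibitor of metalloproteinases. The log2 ratios of control replicates 1 to 5 were -1.88, -2.92, -2.17, -2.02 and -2.08. They were -2.49, -1.73, -2.13, -1.99 and -2.20 at 25 mg/kg/day and -1.64, -1.93, -1.99, -1.97 and -1.74 at 50, in replicate order. The highest dose gave -1.77, -1.79, -1.66, -2.11 and -1.90, with 3 of 5 above all controls. Control replicate 2 was again the lowest control array. The log2 difference at 75 mg/kg/day was 0.37 (limma, adjusted p = 0.411), and 0.19 without that array.

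*Timp2*, a further inhibitor of metalloproteinases, was at 0.36 (95% CI -0.29 to 1.01), and 0.08 without control replicate 2. *Mmp2* and *Mmp14*, the secreted gelatinase and the membrane protease that activates it, were at -0.12 (95% CI -0.35 to 0.11) and 0.24 (95% CI -0.53 to 1.01). *Adamts2*, which removes the N-terminal propeptide of procollagens, was at 0.09 (95% CI -0.27 to 0.45).

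**Figure D4:**
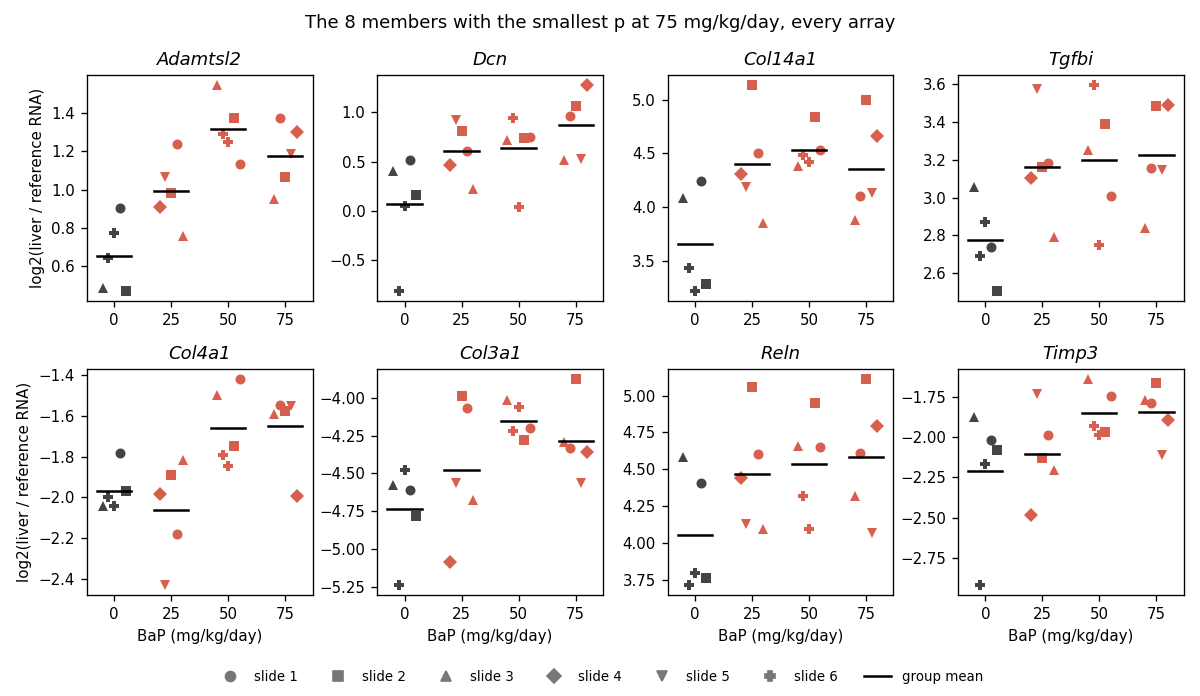
Log2 ratio of liver over reference RNA (y axis) in every array of the 4 dose groups (x axis, mg/kg/day of BaP) for the 8 genes with the smallest p at 75 mg/kg/day, with the slide as the marker and the group mean as a bar. The 5 arrays at 75 mg/kg/day lie above all 5 controls for *Adamtsl2* and overlap them for the other 7 genes.

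The width of the intervals limits what these counts show. At 25, 50 and 75 mg/kg/day, the 95% CI of 27, 26 and 24 of the 39 genes lay wholly within a 1.5-fold difference in both directions. For 9, 13 and 13 genes it reached a 1.5-fold difference upward, with the highest bound at 2.41-fold at 75 mg/kg/day. It reached a 1.5-fold difference downward for 4, 1 and 2 genes. The fitted fold change passed 1.5 for 1, 2 and 2 genes, all with the higher mean in the exposed mice.

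The difference from control also moved with the ratio of liver over reference. Over all probes with a mean log2 ratio under -2, the median log2 difference was -0.16, -0.08 and -0.10 at 25, 50 and 75 mg/kg/day, and over those with a ratio above 2 it was 0.18, 0.13 and 0.20. Of the 39 genes, 30 had a lower signal in liver than in the reference and 9 a higher one. The median difference at 75 mg/kg/day was 0.03 over the 30 and 0.45 over the 9, and 9 of the 9 lay above 0. In the liver channel alone, without the reference channel, the medians were 0.01 over the 30 and 0.32 over the 9, where all probes had 0.01 and 0.00. The part of this relation in the differences of single genes was not tested.

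**Figure D5:**
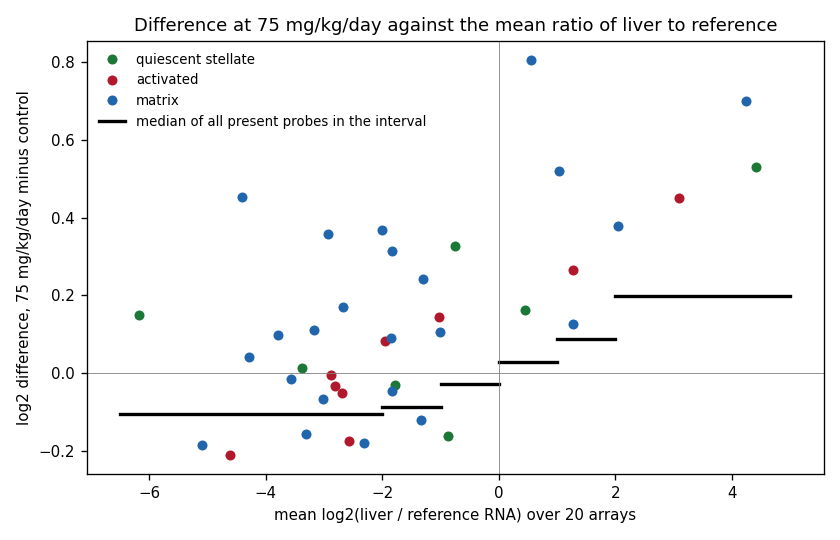
Log2 difference between the 75 mg/kg/day and control groups (y axis) against the mean log2 ratio of liver over reference RNA over the 20 arrays (x axis) for the 39 genes, with black bars for the median of all probes in each interval of the ratio. The bars run from -0.10 to 0.20, and the 9 genes to the right of 0 lie above 0.

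Other genes of the same pathways were read from 4 lists, none of whose members are among the 40. Of 23 further stellate cell genes measured, 0 were called at any dose by limma, and at an unadjusted p under 0.05 at 75 mg/kg/day 7 had the higher and 1 the lower mean in exposed mice. Over all 27346 probes, 1783 had the higher and 1282 the lower mean at that limit, together 11.2%. The median log2 difference of the 23 genes was 0.23, 0.33 and 0.34 at 25, 50 and 75 mg/kg/day. Among those with the smallest p at 75 mg/kg/day were *Ngfr*, a neurotrophin receptor, at 0.76 (limma, adjusted p = 0.0755), and *Pth1r*, the parathyroid hormone receptor, at 0.51 (adjusted p = 0.147).

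Of 29 genes of the transforming growth factor beta and platelet-derived growth factor pathways, 0 were called at any dose, and at 75 mg/kg/day 3 had the higher and 2 the lower mean at an unadjusted p under 0.05 from limma. The same limit was passed by 11.2% of all probes, in either direction. The median log2 difference of the 29 genes at 75 mg/kg/day was -0.06. The smallest p belonged to the co-receptor *Eng* at 0.55 (adjusted p = 0.0894), the integrin subunit *Itgb6* at -0.88 (adjusted p = 0.225) and the receptor *Tgfbr2* at 0.40 (adjusted p = 0.244). Of 26 genes of collagen processing and breakdown, 0 were called and 7 lay above the control at 75 mg/kg/day, against 50.6% of all probes. At an unadjusted p under 0.05 from limma, 0 had the higher and 1 the lower mean. The smallest p belonged to the proteases *Ctsk* at -0.32 (limma, adjusted p = 0.317), *Mmp11* at -0.25 and *Plat* at -0.23.

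Of 30 further matrix genes, 1 was called at 75 mg/kg/day, against 0.135% of all probes. At an unadjusted p under 0.05 from limma, 4 were higher and 4 lower, where 11.2% of all probes passed in either direction. *Lama4*, which encodes a laminin chain of vascular basement membranes, rose by 0.85 on the log2 scale at 75 mg/kg/day (limma, adjusted p = 0.0401) and also had a trend with dose (adjusted p = 0.0279), with 5 of 5 exposed arrays above all controls.

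Markers of other liver cells were read as log2 differences averaged over a list in each array. Of all probes, 50.6% lay above the control at 75 mg/kg/day. The hepatocyte, endothelial and Kupffer cell lists averaged a log2 ratio of liver over reference above 2 in every array. Over all probes with a mean ratio above 2, the median log2 difference at 75 mg/kg/day was 0.20. The mean over 8 hepatocyte markers ranged from -0.59 to 0.62 in controls and from 0.22 to 0.51 at 75 mg/kg/day, and 8 of 8 had a mean above the control at 75. The 10 sinusoidal endothelial markers ranged from -0.44 to 0.31 in controls and from 0.27 to 0.89 at 75 mg/kg/day, with 10 of 10 above the control. Of these, *Lyve1*, a hyaluronan receptor, was called at 75 mg/kg/day at 2.23 (limma, adjusted p = 0.0189). For 9 Kupffer cell markers the ranges were -0.22 to 0.15 and -0.06 to 0.58, with 8 of 9 above the control. Of these, *Marco*, a scavenger receptor of macrophages, was called at 2.19 (limma, adjusted p = 0.00148). The 8 vascular smooth muscle markers ranged from -0.06 to 0.11 in controls and from -0.08 to 0.29 at 75 mg/kg/day, with 4 of 8 above the control, and the 10 markers of portal fibroblasts and mesothelium from -0.19 to 0.18 and from -0.07 to 0.07, with 3 of 10 above it. The endothelial and Kupffer cell means include *Lyve1* and *Marco*, the largest difference of each list at 75 mg/kg/day. The median log2 difference at that dose was 0.40 over the hepatocyte, 0.32 over the endothelial and 0.12 over the Kupffer cell markers. It was 0.01 over the smooth muscle and -0.04 over the portal fibroblast and mesothelium markers. It was 0.06 over 7 bile duct markers, 0.02 over 3 B cell, -0.18 over 4 T cell, 0.87 over 2 neutrophil and 0.10 over 4 lung epithelium markers. The part of these cells in the values of the 39 genes was not tested, nor was that of the ratio in the marker differences.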

How the data were processed

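Liver RNA of 20 mice, 5 in each of 4 groups, was measured on 2-color arrays of 45018 features against a common reference RNA. The deposited intensity values are the spot signals and local backgrounds of both channels, which the authors extracted with Feature Extraction (version 10.1.1.1 per the file headers). The deposited log2 ratios of the authors, normalized by LOWESS, were used only as an alternative and correlated with the ratios computed here at 0.994 to 0.996 per array. Neither table gives counts, and the number of arrays limits the precision.

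From the median signals, background was corrected by normexp with an offset of 50, arrays were normalized by loess, outlier spots were left out, and spots of 1 probe were averaged (41174 probes). Kept were 27346 probes with a liver signal above a limit set by 153 negative control spots (their mean plus 3 SDs, both after trimming 5%) on at least 4 of 5 arrays of a group. The probe of highest mean intensity stood for a gene. Differences from control and a linear trend with dose were fitted in limma 3.58.1 (R 4.3.3) over all 20 arrays, with Benjamini-Hochberg adjustment within each comparison, and the scripts were tested on simulated data. Gene symbols came from RefSeq through the accessions of the probes. Figures were drawn with matplotlib 3.10.9.

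The members and lists were chosen with earlier results of these data known. Values per array are given for the 8 members with the smallest p at 75 mg/kg/day, and *Ecm1* was added after its values were seen. From each list of other genes, those called, or otherwise the 3 with the smallest p, are named, except 1 gene that is not reported here; *Lyve1* and *Marco* were named after their values were seen. Alternatives covered the background, the normalization, the filter, the slide, the probe, the call rule and each array left out. All 20 arrays were kept, although the study's methods mention 1 removed sample without naming it.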

Additional observations from a re-analysis of the deposited data

Results flagged for a closer look

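In 14 of the 156 groups of 5 arrays (8.97%, 13 genes), 1 array lay far from the other 4 in log2 ratio of liver over reference, by Dixon's criterion at its 95% critical value of 0.71, which chance passes in about 5% of groups. Of the 14, 7 were control replicate 2, which lay below the other controls for *Vim* (-7.14, next -6.21), *Fbn1* (-3.15, next -2.74), *Fstl1* (-4.61, next -3.82), *Timp2* (-4.23, next -2.93), *Timp3* (-2.92, next -2.17), *Loxl1* (-2.43, next -1.96) and *Ctgf* (-3.85, next -2.81). At 75 mg/kg/day, replicate 20 was lowest for *Col4a1* (-1.99, next -1.59) and *Timp1* (-2.85, next -2.67), and replicate 19 was highest for *Col4a2* (-0.58, next -1.06) and *Col5a1* (-2.80, next -3.18). At 50 mg/kg/day, replicate 13 was lowest for *Dcn* (0.041, next 0.72). At 25 mg/kg/day, replicate 8 was highest for *Timp1* (-2.52, next -2.76) and replicate 7 for *Mmp14* (-0.50, next -1.54).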

How the results depend on the processing

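Over 33 settings, no gene of the 39 was called at the lowest or the highest dose. Under 2 settings 1 gene, *Adamtsl2*, was called at 50 mg/kg/day, with a normexp offset of 10 (adjusted p = 0.0398 from limma) and with the adjustment over the 3 comparisons together (adjusted p = 0.0338), the latter chosen after seeing the data, as were keeping outlier spots and leaving out spots of outlying local background. With each array left out in turn, 0 to 1 genes had a trend with dose, and the 1 was *Adamtsl2* without replicate 16 of the 75 mg/kg/day group (adjusted p = 0.0282). At 75 mg/kg/day the adjusted p of *Adamtsl2* ranged from 0.0464 to 0.431 over the settings, and it lay under 0.05 without control replicate 4 (0.0464) and without replicate 16 of that dose (0.0498), where the log2 difference of 0.58 stayed under the fold limit. The median difference of the quiescent genes at 75 mg/kg/day ranged from -0.039, without control replicate 2, to 0.22 with 1 array left out, that of the activated genes from -0.06 to 0.09 and that of the matrix genes from 0.07 to 0.18. Of the 39 differences at 75 mg/kg/day, 20 kept their sign in every setting in which they were recomputed and 19 did not in at least 1. There were 32 such settings, or 31 for *Hhip* and *Col5a2*. Leaving out an array of a lower dose, changing the adjustment or comparing only the control and the dose group cannot turn the sign of these differences. The filters on dim probes also left *Adamtsl2* at 0.52. Signs kept in those settings are therefore no test of the differences. *Hhip*, a dim probe, reached 1.399 with the scanner's processed signals. The causes were not tested. The groups share no replicate numbers, so arrays were matched only by slide, as a block and within slides.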
